A study of Mus musculus with 12 samples.

Results

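Untreated mouse embryonic fibroblasts (MEFs) lacking XBP1 were compared with untreated wild type MEFs for their microRNAs (miRNAs). The comparison rests on 4 arrays of the 12 in the series, namely replicates 1 and 2 of XBP1WT and replicates 1 and 2 of XBP1KO, chosen by their titles. Both genotypes had the C57BL/6 background and were grown in the same medium with serum and 2-mercaptoethanol. Wild type here means XBP1WT cells that received nothing, and knockout means XBP1KO cells that received nothing. The other 8 arrays hold both genotypes after 2 ug/mL tunicamycin, a blocker of N-linked glycosylation, for 12 h or 24 h, and are used for the spread and for 1 comparison below. The labels call the replicates independent experiments, and how many embryos or lines stand behind each genotype is not given there. The array carries miRNA probes and no probe for the Xbp1 mRNA, so the genotype was not checked from the data.

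A miRNA is a short RNA that guides Argonaute proteins to mRNAs, mostly by pairing through its seed, bases 2 to 8 from its 5′ end. Both arms of a hairpin can each give a miRNA, and the less abundant arm was formerly named with an asterisk. XBP1 switches on genes of the unfolded protein response once the sensor IRE1, in the endoplasmic reticulum membrane, has spliced its mRNA. Cells without added stress still fold secreted proteins, and the question asked of these arrays is which miRNAs differ by genotype before tunicamycin is given.

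The mature sequences on which the results turn are given in 5′ to 3′ direction with the seed in capitals, from RefSeq on the mouse assembly GRCm38.p6. Of the 32 miRNAs past the threshold, 23 matched that table by name. The first set shares the seed of the miR-15/16 family or, for miR-503, differs from it in the last seed base. They are shown because members with this seed are compared below.
miR-195: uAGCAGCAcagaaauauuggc
miR-497: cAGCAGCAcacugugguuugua
miR-322: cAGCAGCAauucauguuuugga
miR-503: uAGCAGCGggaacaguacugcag
miR-15a: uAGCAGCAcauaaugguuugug
miR-15b: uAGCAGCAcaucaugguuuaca
miR-16: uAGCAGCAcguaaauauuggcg
The genes of miR-195 and miR-497 are neighbours on the plus strand of chromosome 11, and those of miR-322 and miR-503 are neighbours on the minus strand of chromosome X.

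The second set holds pairs that share a seed, shown because the values of both members are set side by side below.
miR-221: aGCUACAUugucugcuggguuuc
miR-222: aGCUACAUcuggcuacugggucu
miR-10a: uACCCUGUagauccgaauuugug
miR-10b: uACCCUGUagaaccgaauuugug
miR-196a: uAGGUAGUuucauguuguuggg
miR-196b: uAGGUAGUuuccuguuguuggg
miR-99a: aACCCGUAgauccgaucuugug
miR-100: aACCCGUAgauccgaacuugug
Counted from the 5′ end, miR-10b differs from miR-10a by 1 base (U12A), miR-196b from miR-196a by 1 base (A12C) and miR-100 from miR-99a by 1 base (U16A). The miR-221 and miR-222 genes are neighbours on the minus strand of chromosome X. miR-10a is encoded on chromosome 11 and miR-10b on chromosome 2, both on the plus strand and both in Hox gene clusters, and miR-196b on the minus strand of chromosome 6, in another Hox cluster.

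The third set holds miRNAs with large differences between the genotypes, and miR-21, the highest by signal.
miR-155: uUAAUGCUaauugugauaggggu
miR-31: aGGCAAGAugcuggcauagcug
miR-31*: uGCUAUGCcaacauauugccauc
miR-210: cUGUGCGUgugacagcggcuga
miR-21: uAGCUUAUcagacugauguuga
miR-155 is encoded on the plus strand of chromosome 16, both arms of miR-31 on the minus strand of chromosome 4, miR-210 on the minus strand of chromosome 7 and miR-21 on the minus strand of chromosome 11.

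Values are scaled signals, the background-subtracted brightness of all probes of a miRNA after each array was set to the same 75th percentile. They have a floor of 10.0, below which a signal is not ordered, and differences are given on the log2 scale as knockout minus wild type each with its standard error (SE). The threshold was an adjusted p under 0.05 in limma, with 2 arrays per group. Before scaling, mouse miRNA signals summed to 95743 and 108961 on the arrays of wild type cells and 185304 and 187401 on those of knockout cells, a ratio of 1.82. Scaling to the 75th percentile reduces this ratio but does not make the sums equal. An exact two-sided permutation test of the unscaled sums, 2 against 2 arrays, gave p = 0.333, the smallest it allows. The software detected 193 and 199 mouse miRNAs on the wild type arrays and more on both knockout arrays. All 4 untreated arrays lay on 1 slide, wild type in row 1 and knockout in row 2, so slide row and genotype cannot be told apart. Replicates correlated at r = 0.986 in wild type and 0.993 in knockout over 256 miRNAs, and arrays of different genotype at 0.935 to 0.947. All 11 fibroblast and mesenchymal markers on the array were detected, and none of the 7 epithelial, 2 endothelial or 1 liver markers was. At least 1 untreated array detected 5 of 7 neural, 1 of 7 blood cell, 1 of 4 muscle and 2 of 15 embryonic stem cell markers.

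Among the tunicamycin arrays, the knockout arrays at 24 h stood apart from each other in a few miRNAs that matter here. On the log2 scale miR-10b was at 7.69 on replicate 1 and at the floor of 3.33 on replicate 2. miR-99a was at the floor on replicate 1 and at 5.99 on replicate 2, and miR-296-5p was at the floor on replicate 1 and at 5.48 on replicate 2. Because all 12 arrays share 1 estimate of the spread, these arrays widen the error of such miRNAs in the untreated comparison too.

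Of 256 mouse miRNAs tested, 32 (12.5%) were past the threshold, 13 higher in knockout (5.08%) and 19 lower (7.42%). All 32 had knockout and wild type values that did not overlap, which held for 58.2% of all tested miRNAs. miR-196b was the largest rise and miR-155 the largest fall, as the plot of the genotypes against each other shows. The direction of the calls depends on scaling: 12 were higher and 6 lower with scaling over all mouse miRNAs, 12 and 9 with quantile normalization, 9 and 20 with scaling over miRNAs detected on the untreated arrays, and 42 and 7 with no scaling, which moved the median of all miRNAs by 0.51. When the 4 untreated arrays were fitted alone, 81 were past the threshold, and 92 when the replicate number was also a block. With the block in the fit of all 12 arrays, 35 were. That fit added miR-143 (limma adjusted p = 0.03), miR-30a* (0.0442), miR-127 (0.0333) and miR-181a (0.0158) and lost miR-322.

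**Figure D1:**
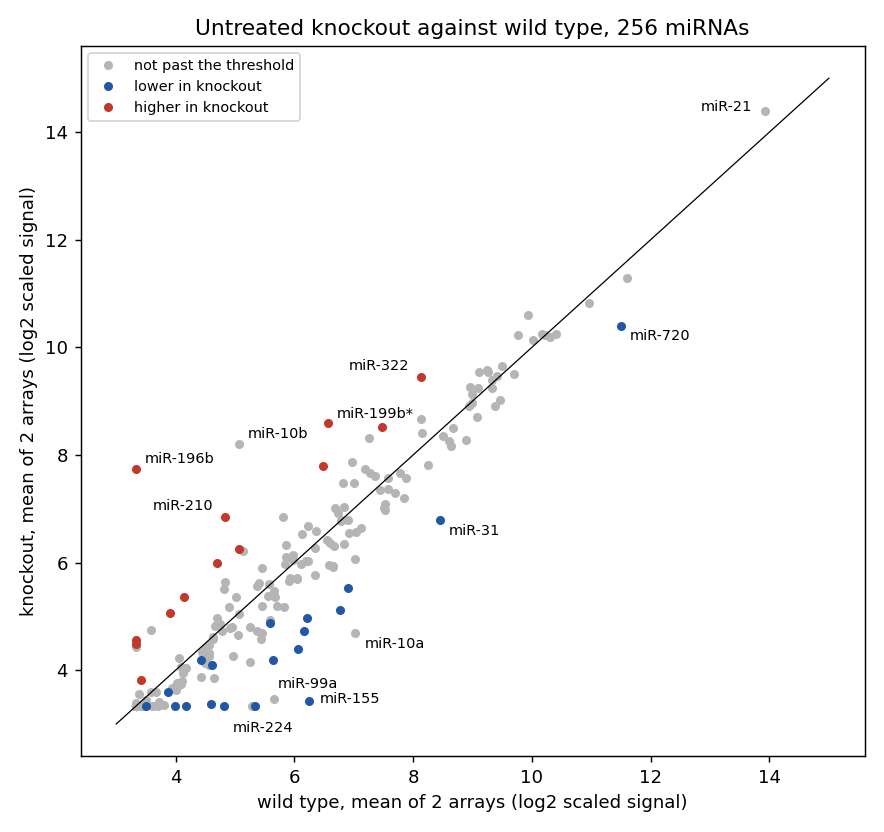
Mean log2 scaled signal of 2 wild type arrays (horizontal) against 2 knockout arrays (vertical), both untreated, for 256 miRNAs, with the line of equality. The 13 miRNAs higher in knockout lie above the line and the 19 lower ones below it. miR-10b, miR-10a and miR-99a lie as far from it but were not past the threshold.

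The most abundant miRNAs were nearly the same in both genotypes. Of the 10 highest by signal, 9 were shared between wild type and knockout, and of the 50 highest 42 were, against 49 shared by replicates of either genotype. miR-21, a miRNA abundant in fibroblasts, ranked 1 on all 4 arrays and made up 28.9% and 27.8% of the summed miRNA signal in wild type and 36.7% and 35.4% in knockout. Its scaled signal was 16122 and 15084 in wild type against 21917 and 21090 in knockout, and its log2 difference of 0.46 (SE 0.20) missed the threshold (limma adjusted p = 0.262). miR-125b-5p ranked 2 in both genotypes. Ranks also reflect how brightly a probe binds, so only the same miRNA is compared between genotypes here.

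miR-720, a name since assigned to a tRNA fragment, ranked 3 in wild type and 5 in knockout. It gave 2826 and 2948 on the wild type arrays and 1200 and 1530 on the knockout arrays, so that knockout was below wild type on both arrays (log2 difference -1.09, SE 0.22, limma adjusted p = 0.015). miR-199a-3p, a mesenchymal miRNA, ranked 10 in wild type and 4 in knockout, with 996 and 963 against 1550 and 1536 (0.66, SE 0.26), and was not past the threshold (limma adjusted p = 0.188). The 9 members of the let-7 family, which restrains growth and pluripotency genes, included none past the threshold, and their median difference was 0.014. let-7a, for example, gave 1327 and 1393 in wild type against 1224 and 1207 in knockout. Among the 50 highest of either genotype, the largest gains in rank were of miR-196b from 198 to 43 and miR-10b from 124 to 38. The largest losses were of miR-31 from 33 to 65 and miR-669a from 39 to 55.

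**Figure D2:**
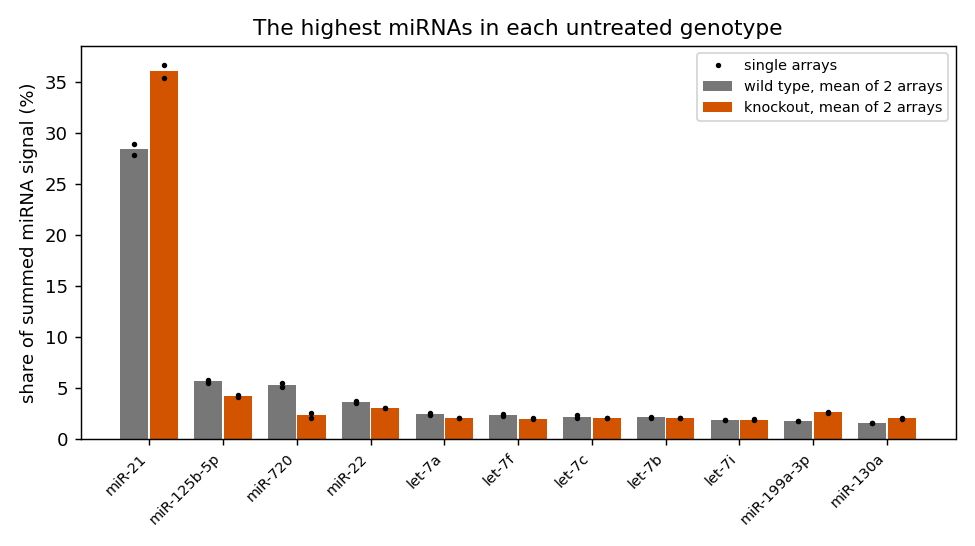
Share of the summed mouse miRNA signal (%) of each miRNA among the 10 highest of either untreated genotype; bars are means of 2 arrays and dots the single arrays. miR-21 alone is near 28.4% in wild type and 36.0% in knockout, and the dots of 1 genotype lie close together.

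Of 5 tested Hox-cluster miRNAs, which are transcribed within the homeobox gene clusters and target Hox mRNAs, 1 was past the threshold, miR-196b, against 5.08% of all tested miRNAs called higher. The differences of the 5 ran from -2.34 to 4.42. miR-196b was detected on neither wild type array, where it was at the floor, and gave 213 and 215 in knockout. Against the floor it was at least 21.3-fold higher in knockout (log2 difference 4.42, SE 0.39, limma adjusted p = 0.000337). miR-10b gave 30.5 and 36.6 on the wild type arrays and 287 and 305 on the knockout arrays, while miR-10a gave 127 and 134 in wild type against 24.7 and 26.8 in knockout. The arrays of each genotype thus agreed closely and the 2 miRNAs, which differ by 1 base, lay on opposite sides. The differences were 3.15 (SE 1.19, limma adjusted p = 0.169) for miR-10b and -2.34 (SE 0.75, adjusted p = 0.102) for miR-10a.

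Those p-values turn on the knockout arrays at 24 h. On the log2 scale miR-10b was at 7.69 on replicate 1 of that group and at 3.33 on replicate 2, and miR-10a at 6.06 and 3.38. Leaving out either array removes this disagreement by construction and keeps the untreated differences at 3.15 and -2.34. With the untreated arrays alone the limma adjusted p was 0.00241 for miR-10b and 0.00203 for miR-10a. That fit called 32 of all 256 tested miRNAs higher and 49 lower. miR-196a, which has the seed of miR-196b, gave 40.7 and 46.3 on the wild type arrays and 22.6 and 25.0 on the knockout arrays, a difference of -0.87 that was not past the threshold (adjusted p = 0.479). miR-615-3p was at the floor on all 4 arrays.

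miR-99a resembled miR-10a in direction. It gave 49.3 and 52.0 in wild type against 11.1 and 10.96 in knockout (-2.20, SE 0.73, limma adjusted p = 0.112). With the untreated arrays alone its limma adjusted p was 0.00153. Its close relative miR-100 gave 97.7 and 102.8 on the wild type arrays and 58.1 and 62.3 on the knockout arrays (adjusted p = 0.332). None of the 6 tested members of the miR-99/100 and miR-125 group was past the threshold.

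Of the 6 tested miRNAs of the miR-15/16 seed, which target cyclins and BCL2, 3 were higher and none was lower in knockout, where 5.08% of all tested miRNAs were higher. Their median difference was 0.77, and that of all tested miRNAs was -0.0019. miR-322 (288.7 and 273 in wild type, 687 and 711 in knockout) rose by 1.32 (SE 0.32, limma adjusted p = 0.0399; 0.111 with the replicate block). miR-195 gave 25.8 and 26.3 in wild type against 61.4 and 65.5 in knockout, and miR-497 gave 34.1 and 32.9 against 74.8 and 77.0. Both of these neighbours were thus higher on each knockout array than on either wild type array, by 1.29 (SE 0.22) and 1.18 (SE 0.24). The other 3 members did not pass. miR-15b gave 602 and 604 in wild type against 764 and 774 in knockout (0.35, adjusted p = 0.455). miR-15a was at 738 and 667 on the wild type arrays and 535 and 510.1 on the knockout arrays, and miR-16 at 365 and 362 against 318 and 335.3.

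The cluster that holds miR-322 did not move as one. miR-503 gave 16.01 and 19.3 in wild type against 37.0 and 45.7 in knockout (1.23, SE 0.11, limma adjusted p = 0.000363). With tunicamycin miR-503 was at the floor on all 4 arrays at 12 h and all 4 at 24 h. Such arrays add no spread, so this SE is too small. In the same cluster miR-542-3p and miR-542-5p were called lower by 0.28 and 0.22, near the floor, and both turned higher with scaling over all mouse miRNAs, with no scaling and with quantile normalization. miR-221 and miR-222, which target the cell cycle inhibitor p27, were both higher. miR-221 gave 89.6 and 88.8 on the wild type arrays and 220.0 and 225 on the knockout arrays (1.32, SE 0.26, limma adjusted p = 0.015). miR-222 gave 12.8 and 17.5 in wild type against 28.5 and 39.5 in knockout (1.16, SE 0.20, adjusted p = 0.00936). miR-503 and miR-222 turned lower with normexp (-0.0034 and -0.11) and with the software's total gene signal (-0.78 and -0.43).

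miR-210, the miRNA best known for its induction in hypoxia, gave 28.8 and 28.0 on the wild type arrays and 113.8 and 117 on the knockout arrays. Knockout exceeded wild type 4.06-fold (2.02, SE 0.11, limma adjusted p = 3.34e-05). miR-199b*, a mesenchymal miRNA, gave 91.1 and 98.6 in wild type against 368 and 401 in knockout, 4.05-fold higher (2.02, SE 0.21, adjusted p = 0.000629). miR-30a, a member of a family active in many tissues, gave 180.3 and 176 on the wild type arrays and 365 and 367 on the knockout arrays (1.04, SE 0.10, adjusted p = 0.000478). It was the only 1 of 5 tested miR-30 members past the threshold, where 5.08% of all tested miRNAs were called higher. miR-9 and miR-9*, the arms of a neural hairpin, were not detected in wild type and lay between 21.0 and 24.1 in knockout, which was at least 2.24-fold and 2.36-fold higher against the floor. With normexp background correction both turned lower, to -0.071 and -0.050. Of the 7 neural markers, 5 were tested, and besides these the neural miR-129-5p and miR-129-3p were lower.

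The largest fall past the threshold was in miR-155, a miRNA of activated lymphocytes and macrophages that fibroblasts also make. It gave 74.1 and 77.1 in wild type against 10.8 and 10.6 in knockout, close to the floor (-2.82, SE 0.21, limma adjusted p = 0.000156). The other 6 blood cell markers were not among the tested miRNAs, and the 7 together summed to 78.0 and 85.4 on the wild type arrays and 15.3 and 17.4 on the knockout arrays. In such bulk samples, fewer cells of a type and less RNA per cell cannot be told apart. miR-224 gave 37.9 and 43.0 in wild type and was at the floor on both knockout arrays (-2.01, SE 0.28, adjusted p = 0.00338). miR-31, a miRNA linked to cell motility, gave 367 and 333 in wild type against 110.1 and 110.8 in knockout (-1.66, SE 0.13, adjusted p = 0.000156). Its other arm, miR-31*, gave 110.6 and 107.6 against 33.8 and 35.8 (-1.65, SE 0.13), so both arms fell by the same amount within their errors.

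**Figure D3:**
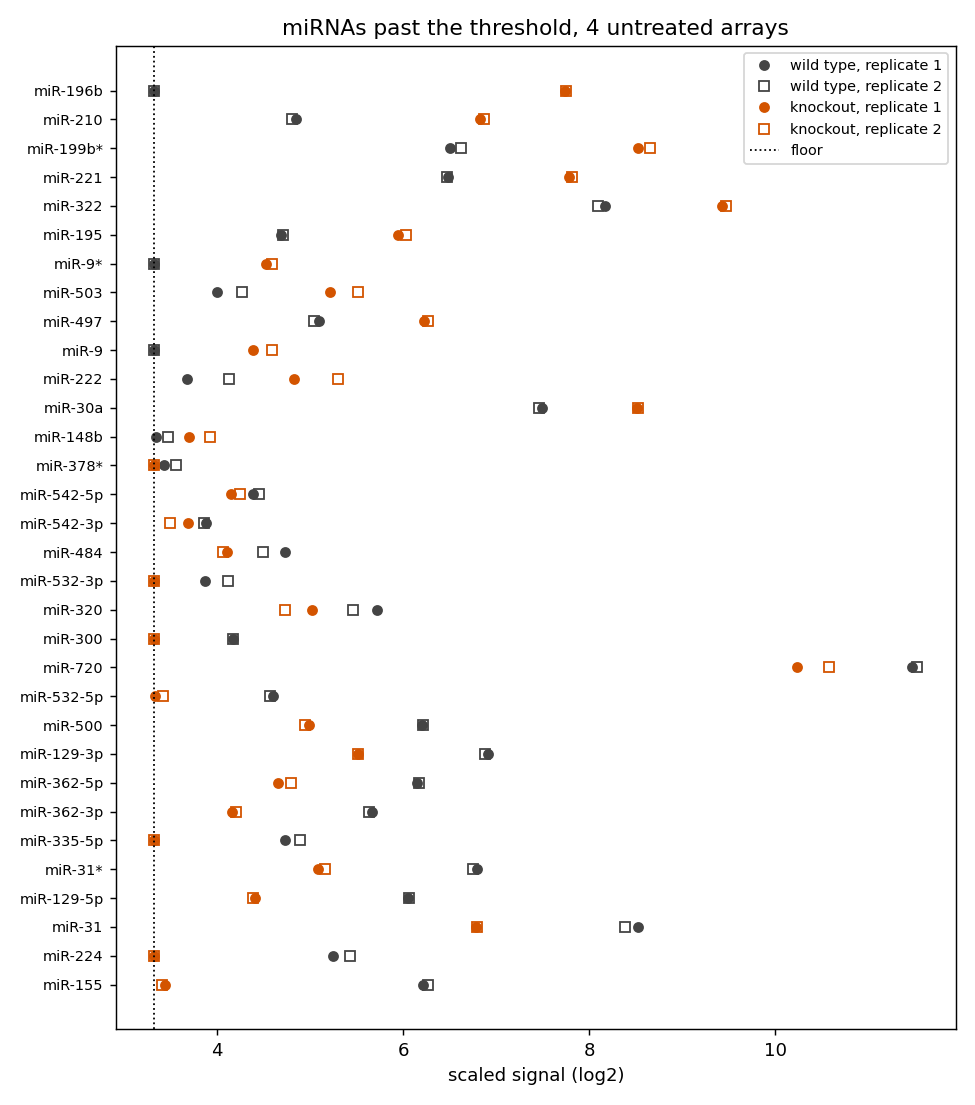
Log2 scaled signal of the 32 miRNAs past the threshold on each of the 4 untreated arrays; circles are replicate 1 and squares replicate 2, and the dotted line is the floor at 3.33. In every row the 2 orange knockout points lie on 1 side of the 2 dark wild type points, and 24 of the rows are above the floor on all 4 arrays.

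A cluster within an intron of Clcn5 on chromosome X was lower in knockout. Of its 6 tested members 5 were past the threshold, all lower, where 7.42% of all tested miRNAs were lower, and the median difference of the 6 was -1.22. miR-362-3p gave 50.6 and 49.5 on the wild type arrays and 17.9 and 18.4 on the knockout arrays (-1.46, SE 0.25, limma adjusted p = 0.00936). miR-500 gave 73.9 and 74.3 in wild type against 31.9 and 30.9 in knockout (-1.24, SE 0.24, adjusted p = 0.015). miR-362-5p, miR-532-5p and miR-532-3p differed by -1.43, -1.21 and -0.67, and miR-188-5p by -0.04, which did not pass. On both knockout arrays miR-532-3p was at the floor, so the size of its difference depends on the floor, and miR-532-5p was close to it. At 12 h of tunicamycin both were at the floor on all 4 arrays, so their errors are too small. Only 2 of the 6 were past the threshold with scaling over all mouse miRNAs, with no scaling, with the software's total gene signal and with a floor of 1, and 1 with another background correction, all lower.

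miR-335-5p, encoded in an intron of the imprinted gene Mest, gave 26.6 and 29.6 in wild type and was not detected in knockout, at least 2.80-fold lower against the floor (-1.48, SE 0.08, limma adjusted p = 3.34e-05). With tunicamycin miR-335-5p was at the floor on 3 of 4 arrays at 12 h and at 24 h, so this SE is too small. Its other arm, miR-335-3p, gave 38.7 and 39.3 in wild type and was not detected in knockout either. It was at least 3.89-fold lower and missed the threshold (adjusted p = 0.0509). With the untreated arrays alone the limma adjusted p of miR-335-3p was 0.00116, in a fit that called 49 of all 256 tested miRNAs lower. miR-129-5p gave 66.3 and 67.0 on the wild type arrays and 21.3 and 20.9 on the knockout arrays (-1.66, SE 0.33, adjusted p = 0.015), and miR-129-3p moved in parallel (-1.38, SE 0.24). miR-320, a miRNA made without Drosha, miR-484 and miR-300 were lower by 0.72, 0.53 and 0.85. With no scaling miR-320 (0.029) and miR-484 (0.22) turned higher. Under the alternatives that gave a value, the call held for miR-320 in 11 of 31, for miR-484 in 9 of 31 and for miR-300 in 11 of 30.

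Groups often followed in MEFs showed little that passed. The 9 tested members of the miR-17~92 cluster and its paralogues, which promote proliferation, had negative differences between -0.60 and -0.31 (median -0.47). None was past the threshold in the fit of all 12 arrays. With the untreated arrays alone 8 were, in a fit that called 49 of all 256 tested miRNAs lower. When the block was added 6 were, in a fit that called 55 of the 256 lower. The median of the 9 became 0.28 with no scaling. miR-92a, for example, gave 475 and 469 in wild type against 310.4 and 312 in knockout. Of 29 tested miRNAs of the Sfmbt2 cluster none passed (median -0.30). Of 16 from the imprinted Dlk1-Dio3 region 1 was called lower, miR-300, where 7.42% of all tested miRNAs were. The miR-29 family had 0 of 3, the miR-23/27/24 clusters 0 of 5 and the miR-26 and miR-101 group 0 of 4.

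Among miRNAs linked to the unfolded protein response, those that the endoribonuclease IRE1 has been reported to cleave had none of 3 tested past the threshold. miR-34a gave 127 and 122 on the wild type arrays and 233 and 235 on the knockout arrays (0.91, SE 0.31, limma adjusted p = 0.12). miR-125b-5p gave 3050 and 3128 in wild type against 2450 and 2566 in knockout, with an adjusted p of 0.369. A list drawn up for PERK, ATF6 or CHOP, which includes miR-346, had 7 tested miRNAs. Whether each member is linked to those branches was not checked here. The 2 past the threshold were miR-221 and miR-222, both higher. Of all tested miRNAs 5.08% were called higher, and these 2 are the neighbours with a shared seed described above. miR-25 gave 189 and 180 on the wild type arrays and 127 and 124 on the knockout arrays (-0.55, adjusted p = 0.0509), and the rest were at the floor or did not pass.

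The probes of the 32 miRNAs were also read singly. The miRNAs were called on the sum of these same probes on the same arrays, so agreement was largely built in and is no separate evidence. The 32 miRNAs had 73 probes, of which 72 moved in the direction of their miRNA. The exception was 1 dim probe of miR-362-5p, with signals under 1 on all 4 arrays.

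The genotype differences were then followed in the 8 tunicamycin arrays, which are other samples. They lay on another slide, again with wild type in row 1 and knockout in row 2. Slide row and genotype therefore cannot be told apart there either. Untreated and tunicamycin arrays shared no slide and no scan, so treatment cannot be told apart from slide or scan. The tunicamycin arrays were also dimmer, with unscaled sums of 15850 to 80997 against 95743 to 187401 untreated. Scaling multiplied them by 0.71 to 3.78, against 0.32 to 0.58 untreated. Calls at these times use the same shared spread of all 12 arrays, so they are not an independent check. At 12 h, 7 of the 32 were past the threshold in the same direction, where 5.08% of all tested miRNAs were past it in either direction. At 24 h, 12 were in the same direction and 1, miR-497, in the opposite one, where 7.81% of all tested miRNAs were past it. The 7 at 12 h were also past it at 24 h: miR-210, miR-155, miR-31, miR-31*, miR-199b*, miR-300 and miR-320. The sign was that of the untreated difference for 21 of the 32 at each time, while 9 at 12 h and 6 at 24 h had no difference because all 4 arrays were at the floor. With quantile normalization, 3 of the 32 were past the threshold at 12 h and 6 at 24 h.

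miR-31 differed by -1.66 untreated, -1.59 at 12 h and -1.60 at 24 h, and miR-199b* by 2.02, 1.57 and 2.22. miR-196b differed by 4.42, 1.71 and 3.29, with a limma adjusted p of 0.0529 at 12 h and 0.00323 at 24 h. On the log2 scale its wild type arrays were at the floor untreated and at 4.17 and 4.99 at 12 h, when its knockout arrays lay at 6.46 and 6.13. miR-195 and miR-497 were higher in knockout untreated and differed by -0.73 and -1.04 at 12 h, when both knockout arrays were at the floor. Neither 12 h difference was past the threshold. At 24 h miR-497 was past it at -1.04, and miR-195, at -0.43, was not. The test of the change from untreated to 12 h gave a limma adjusted p of 0.0116 for each, but it uses again the untreated difference on which both were chosen. In all, 13 of the 32 differences changed by that test at 12 h and 9 at 24 h (5.86% and 4.69% of all tested miRNAs did), but in 6 and 4 of them all arrays of that time were at the floor. The 32 were chosen on the untreated difference, which this test uses again, so nothing is read from these counts.

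**Figure D4:**
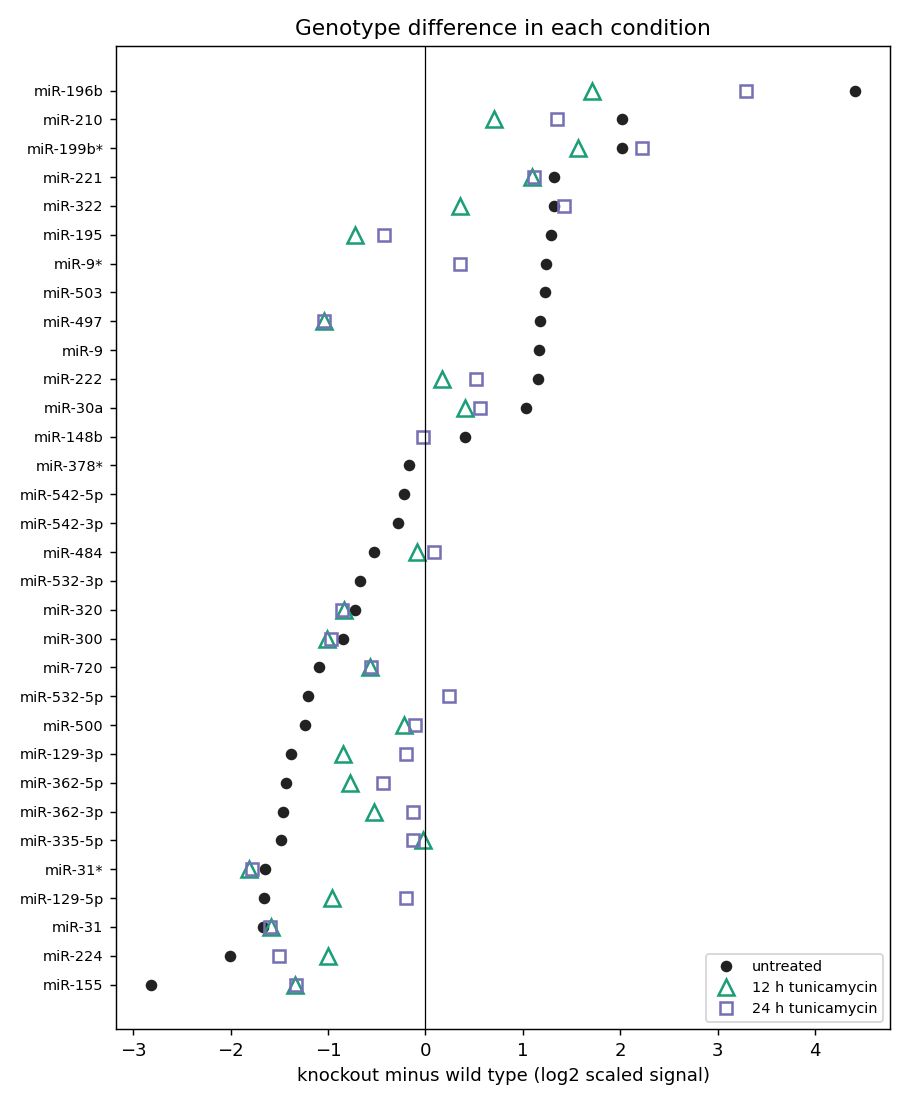
Knockout minus wild type (log2 scaled signal) for the 32 miRNAs past the threshold untreated, in untreated arrays (dots), at 12 h (triangles) and at 24 h of tunicamycin (squares), each from 2 against 2 arrays. A symbol is left out where all 4 arrays of that time were at the floor, as for miR-9 and miR-503. miR-31, miR-31* and miR-199b* keep their difference, and miR-497 changes side.

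The software's own total signal per miRNA, which is also what the authors deposited as their series table, gave other values for many dim miRNAs. On the untreated arrays, 56 to 68 of the detected miRNAs per array, 28.7% to 30.7%, had a total more than 1% above the sum of their own detected probes. Over all 12 arrays this held for 688 of 2189 detected values, and in all 688 the miRNA's first probe by name was not detected. In 681 of the 688 the excess equalled the total of the nearest detected miRNA before it in name order, to within 0.1% of the value. miR-148b on knockout replicate 1, for example, had a total of 140.2, of which 117.2 was the total of miR-148a.

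The excess touched 16 of the 32 miRNAs past the threshold on at least 1 untreated array. miR-155 on knockout replicate 1 had a total of 114 where its own probes summed to 17.7 and the total of miR-152, the one before it, was 96.6. From the software's totals, the genotype difference of miR-155 shrank to -0.36, and those of miR-503, miR-222 and miR-148b changed sign to -0.78, -0.43 and -0.86. From the sum of each miRNA's own detected probes they were -3.10, 1.28, 1.54 and 0.36. The values in the comparisons above were computed from the spots and hold no such excess.

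**Figure D5:**
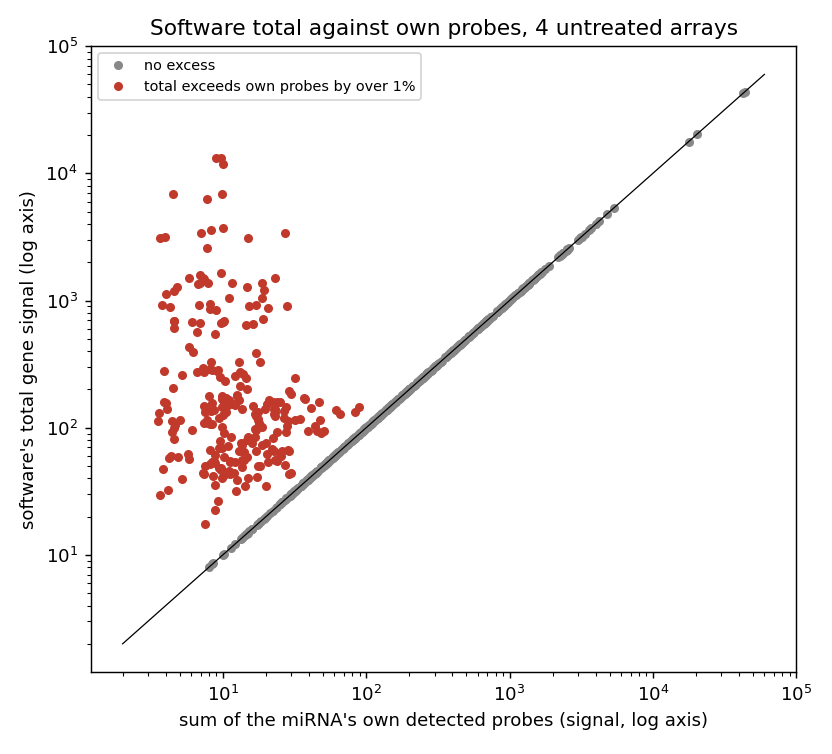
Software's total gene signal (vertical) against the sum of the miRNA's own detected probes (horizontal) for every detected miRNA on the 4 untreated arrays, unscaled, on log axes, with the line of equality. Grey points lie on the line; red points, 56 to 68 per array, lie above it, in all but 1 case per array by the total of the nearest detected miRNA before it in name order.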

How the data were processed

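Cy3-labelled total RNA was hybridised to 1-colour Agilent mouse miRNA arrays. Per the file headers, Agilent Feature Extraction 10.7.1.1 made the deposited spot intensity values, background-subtracted and not normalized between arrays. The series table holds the authors' deposited log2 values, identical to the software's total signal per miRNA on that scale. Control and outlier spots were left out, spots averaged per probe, and probes summed per miRNA. Arrays were scaled to an equal 75th percentile, taken over 95 mouse miRNAs that all 12 detected, and values under the 5th percentile of detected signals set to that floor (10.0). The 256 mouse miRNAs detected on both arrays of at least 1 of the 6 groups were tested with limma 3.58.1 in R 4.3.3, with 1 mean per group over all 12 arrays, an intensity trend, 6 residual degrees of freedom and Benjamini-Hochberg adjustment. A floored value has no spread, so errors near the floor are too small. This also holds for miRNAs that were above the floor untreated and at it with tunicamycin. Where a group detected a miRNA on no array, the fold is a bound against the floor. The limma step was tested on simulated data that had no floor applied and no pairing of replicates, so that test does not cover either. The members and lists were chosen with earlier results of these data known. Named miRNAs are the 15 largest rises and falls past the threshold, the 10 highest per genotype, the 5 largest rank changes each way, up to 4 per list by p, and detected markers; miR-99a's relative miR-100, miR-196a, miR-15a, miR-16, miR-92a, miR-335-3p and miR-296-5p were named outside that rule or after their values were seen. Replicate numbers pair the untreated arrays: same-numbered arrays shared a scan and a date in their labels, and their deviations from the group means correlated at r = 0.867 over 256 miRNAs. The printed errors and p-values leave this pairing out, except where the replicate block is named. P-values measure the spread between these samples. Alternatives covered scaling, background (normexp on median signals), signal summary, floor, filter, samples, blocks and each array left out. Normexp added an offset of 50 to each spot before the arrays were scaled. Plots used matplotlib 3.10.9 in Python 3.11.15.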

Additional observations from a re-analysis of the deposited data

Results flagged for a closer look

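For 13 of the 32 miRNAs past the threshold, the genotype difference at 12 h of tunicamycin differed from the untreated one in a test of the difference itself (limma adjusted p under 0.05). The 32 were chosen on the untreated difference, which this test uses again and which favours passing it. The changes at 12 h and 24 h are therefore listed only, and nothing is read from them. For 6 of the 13, no array at 12 h exceeded the floor, which makes their later difference 0 by construction. These were miR-9 (change of the difference -1.17), miR-503 (-1.23), miR-9* (-1.24), miR-542-5p (0.22), miR-532-5p (1.21) and miR-532-3p (0.67). miR-335-5p changed by 1.46 with 3 of 4 arrays at the floor, and miR-210 (-1.31), miR-195 (-2.01) and miR-497 (-2.22) with 2 of 4. miR-155 (1.48), miR-196b (-2.70) and miR-30a (-0.63) changed with no array at the floor.

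At 24 h 9 of the 32 changed in the same test. miR-9 (-1.17), miR-503 (-1.23), miR-532-3p (0.67) and miR-542-5p (0.22) had all 4 arrays at the floor, and miR-335-5p (1.35) and miR-532-5p (1.45) had 3. miR-195 changed by -1.72 with 1 array at the floor, and miR-155 (1.49) and miR-497 (-2.22) with none. Of all tested miRNAs 5.86% passed this test at 12 h and 4.69% at 24 h.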

How the results depend on the processing

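Limits first: 2 arrays per group, slide row shared with genotype, and signals near the floor, where scaling and background decide the sign of small differences. Past the threshold, against 32 (13 higher, 19 lower) in the fit as reported, were 18 with scaling over all mouse miRNAs (6 lower), 49 with no scaling (42 higher, 7 lower), 21 with quantile normalization (9 lower), 15 with normexp background correction (6 higher, 9 lower), 81 with the 4 untreated arrays alone (32 higher, 49 lower) and 92 with the replicate block and those 4 alone (37 higher, 55 lower). With the replicate block and all 12 arrays 35 were, and miR-322 was the 1 of the 32 that lost its call. 11 were lower with a floor at a scaled signal of 1, and 11 when only miRNAs above the floor on all 4 untreated arrays were tested. Normexp moved the median of all miRNAs by -0.34. Leaving out 1 array gave 19 to 56 in all, 8 to 20 higher and 9 to 36 lower. The lowest were 19 without wild type or knockout untreated replicate 1, 20 and 21 without their replicates 2, where the lone array is assumed to vary like the other groups, and the highest was 56 without either knockout array at 24 h. The direction changed with scaling over all mouse miRNAs for miR-542-5p (0.17), miR-542-3p (0.11) and miR-378* (0.11). It changed with no scaling for miR-542-5p (0.53), miR-542-3p (0.47), miR-378* (0.54), miR-320 (0.029) and miR-484 (0.22), and with quantile normalization for miR-542-5p (0.088) and miR-542-3p (0.016). It changed with normexp for miR-9 (-0.071), miR-503 (-0.0034), miR-9* (-0.050), miR-222 (-0.11) and miR-148b (-0.23). Normexp added an offset of 50 to each spot before scaling, so the added amount differs between arrays after scaling. Its part in these changes was not tested. It changed with the total gene signal, and equally with the deposited series table, for miR-503 (-0.78), miR-222 (-0.43) and miR-148b (-0.86), whose totals hold the total of another miRNA. With the sum of the detected probes' own totals, an alternative chosen after seeing the data, 29 were past the threshold, 21 of them among the 32, and miR-542-3p changed direction (0.078). miR-196b and miR-199b* kept their call and direction under every alternative that gave a value. With quantile normalization 3 of the 32 were past the threshold at 12 h, against 7, and 6 at 24 h, against 13. The shared ranks and the ratio of summed signals moved little: 8 of the 10 and 41 of the 50 highest were shared with the total gene signal, and the ratio was 1.67.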
